A study of Mus musculus with 12 samples.

Results

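The splicing factor genes described here were the SR, hnRNP and SF3 genes, chosen by name: every row of both deposited tables whose Ensembl identifier belongs to a protein-coding mouse gene with a symbol that begins Srsf, Hnrnp, Sf3a or Sf3b. There were 40 of them among the 24255 genes present in both tables, 11 SR, 20 hnRNP and 9 SF3 genes. The gene families were singled out with earlier results of these same contrasts known, so the counts below describe them and are no independent evidence that they stand apart. The series measured the response of 2 mouse cell lines to diethyl phthalate (DEP), an ester used as a plasticizer and solvent, by sequencing total RNA. The groups were AML12 cells given 50 µM DEP, AML12 cells given DMSO, iWAT cells given 50 µM DEP and iWAT cells given DMSO, with 3 libraries in each. Per the labels, exposure began at confluence and lasted 48 h, AML12 cells grew in DMEM/F12 and iWAT cells in DMEM, and DMSO is named in the sample titles only. AML12 is a hepatocyte line derived from the liver of transforming growth factor alpha transgenic mice, and the labels describe iWAT as adipocytes. Each group is 1 cell line under 1 condition. The labels do not state whether the replicates came from separate cultures, so the p-values measure the spread between these libraries, which may be technical.

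Introns are removed from pre-mRNA by the spliceosome, which recognizes the splice sites and the branch site through small nuclear ribonucleoproteins (snRNPs). SR proteins bind exonic enhancers through an RNA recognition motif and recruit splicing machinery through a tail rich in arginine and serine, while many hnRNP proteins bind silencers or intronic sites and often oppose them. SF3A and SF3B are multi-subunit parts of the U2 snRNP that hold it on the branch site. Many SR and hnRNP genes control their own mRNA through exons or introns that send it to nonsense-mediated decay, and the liver and fat tissue both depend on regulated splicing of metabolic genes.

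In AML12 cells most splicing factor genes were higher with DEP by a small amount, and in iWAT cells few differed. Levels are in FPKM, reads scaled by gene length and library total, as deposited by the authors. Among the 39 genes with enough signal to test, 27 rose and 2 fell in AML12 cells (limma on log2(FPKM + 1), two-sided, Benjamini-Hochberg adjusted p below 0.05 over all genes tested), beside 23.9% of all 12929 genes tested called higher and 15.3% called lower. The rises were small, from 6.91% for Sf3a1 to 28.5% for Sf3a3, and the median log2 fold change was 0.15 over the splicing factor genes, against 0.03 over all genes tested. In iWAT cells 1 rose (Sf3a2) and 2 fell (Srsf7 and Hnrnpa2b1), beside 4.03% of all 13482 genes tested called higher and 4.52% called lower. The gene left out of every test was Srsf12, for which 4 reads were recovered in 1 AML12 DMSO library, 2 reads in 1 iWAT DEP library and none elsewhere.

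By class, 8 of 10 tested SR genes rose and 1 fell in AML12 cells, 14 of 20 hnRNP genes rose and none was called lower, and 5 of 9 SF3 genes rose and 1 fell. The median log2 fold changes were 0.16 for SR, 0.16 for hnRNP and 0.09 for SF3 genes. In iWAT cells the medians were 0.00 for SR, -0.01 for hnRNP and 0.03 for SF3 genes, against 0.01 over all genes tested, and 34 of the 39 genes lay within 0.1 of no change. Of the 39 tested genes, 29 had all 3 AML12 DEP libraries above all 3 AML12 DMSO libraries, as did 31.6% of all genes tested, and in iWAT cells 10 genes did, as did 17.2% of all genes tested. Splicing factor genes are mostly abundant, so the same counts were taken at 10 FPKM or more on average: 24 of 35 rose in AML12 cells beside 32% of all such genes, and 1 of 36 rose in iWAT cells beside 7.19%.

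**Figure D1:**
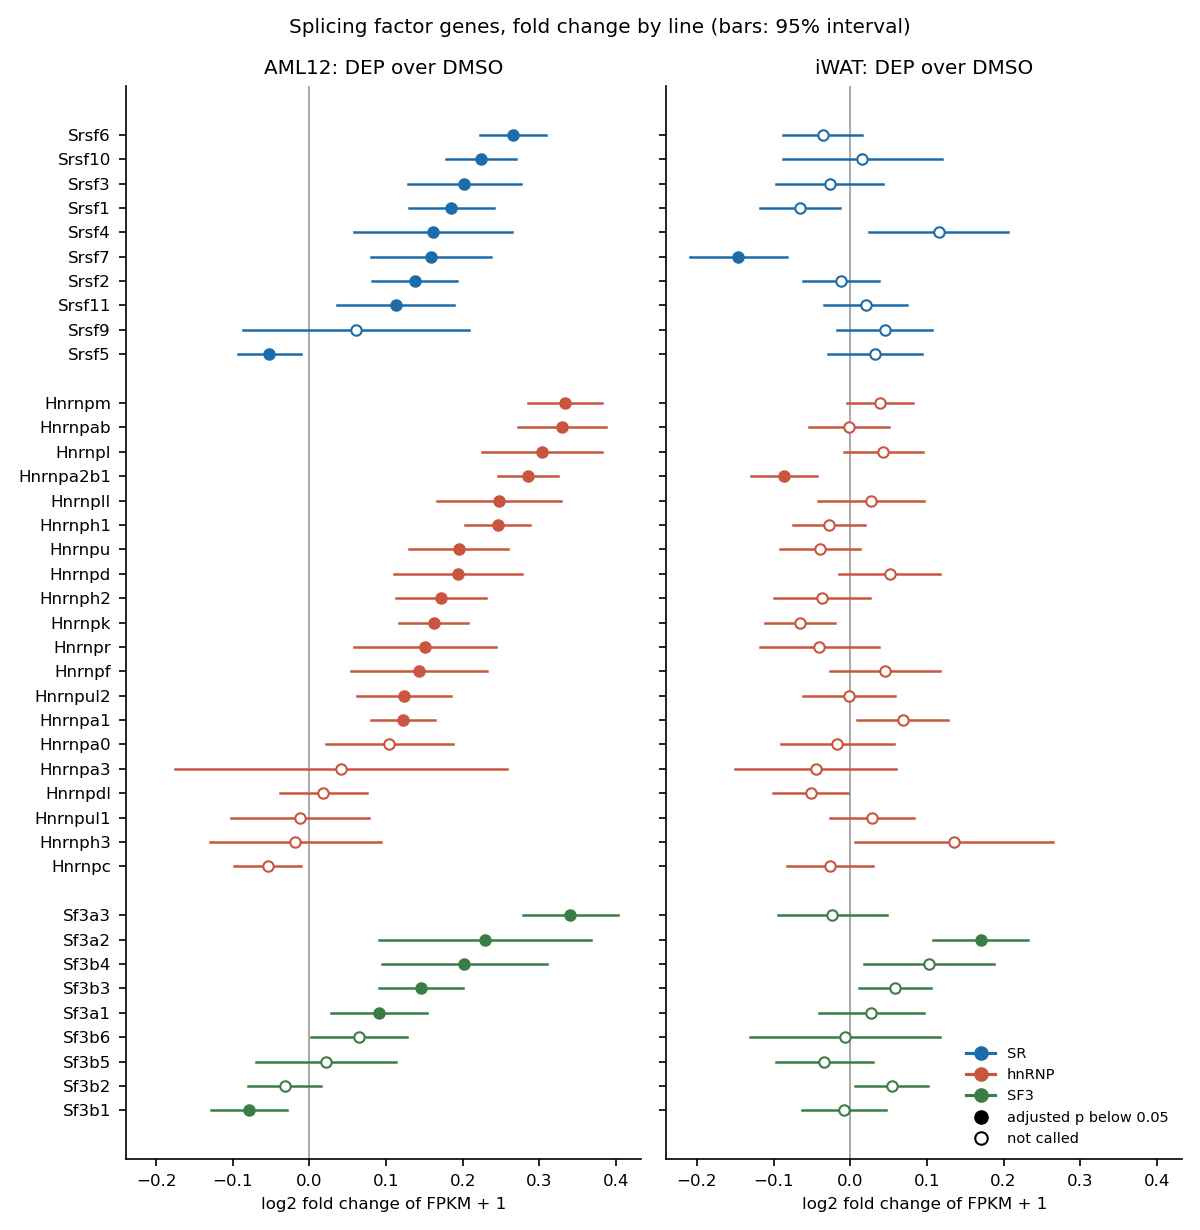
Log2 fold change of FPKM + 1, DEP over DMSO, for the 39 tested splicing factor genes, grouped into SR, hnRNP and SF3 genes, in AML12 (left) and iWAT cells (right); points are limma estimates, bars their 95% intervals, and filled points passed an adjusted p below 0.05. Filled points lie to the right of 0 for 27 genes in AML12 cells and for Sf3a2 alone in iWAT cells.

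Other features of the libraries moved with treatment. In AML12 cells the totals recovered from the deposited values were 49249612 to 52915504 reads in DEP and 42845105 to 46232482 reads in DMSO libraries, whereas in iWAT cells they were 47735539 to 49059545 reads in DEP and 50035049 to 54585090 reads in DMSO libraries. The summed level of the 2 mitochondrial ribosomal RNAs was 1008 to 1038 FPKM in AML12 DEP and 669 to 687 FPKM in AML12 DMSO libraries, and 546 to 565 FPKM in iWAT DEP and 516 to 538 FPKM in iWAT DMSO libraries. Mki67, a proliferation marker, stood at 20.4 to 21.4 FPKM in AML12 DEP and 12.4 to 12.5 FPKM in AML12 DMSO libraries, and at 44.9 to 46.1 FPKM in iWAT DEP and 43.3 to 44.5 FPKM in iWAT DMSO libraries. Summed hepatocyte markers, of which 5 of 5 tested rose in AML12 cells, were 581 to 595 FPKM in AML12 DEP and 516 to 527 FPKM in AML12 DMSO libraries, with Cps1, Ass1 and Fga at or near 0. Summed markers of simple epithelium, 2 of 3 of which rose in AML12 cells, were 3278 to 3302 FPKM in AML12 DEP and 2775 to 2800.5 FPKM in AML12 DMSO libraries. In the iWAT libraries the defining adipocyte genes Adipoq and Plin1 were at or near 0, as was Cidec, which goes against the adipocyte label. Pparg, Lpl and Fabp4 of the same list had 9.84 ± 0.49, 8.46 ± 0.20 and 1.63 ± 0.05 FPKM in iWAT DMSO libraries (SD, n = 3). In AML12 DMSO libraries these genes had 0.58, 0.07 and 0.07 FPKM on average, so the list was split on the label. Summed adipocyte markers, 1 of 3 tested of which fell in iWAT cells, were 16.5 to 17.5 FPKM in iWAT DEP and 19.6 to 20.4 FPKM in iWAT DMSO libraries. Summed mesenchymal markers, 5 of 6 of which fell in iWAT cells, were 462 to 479 FPKM in iWAT DEP and 514 to 522 FPKM in iWAT DMSO libraries. The exception, Vim, was not called and made up most of the sum, at 285 FPKM in iWAT DEP and 274 FPKM in iWAT DMSO libraries on average. The mesenchymal sum was 509 to 531 FPKM in AML12 DEP and 521 to 531 FPKM in AML12 DMSO libraries, nearly all of it Vim. This sum therefore does not tell the lines apart. Leukocyte and endothelial markers were at or near 0 in both lines apart from Cd68, which fell in AML12 cells and rose in iWAT cells. The part of these features in the results on splicing factor genes was not tested, and in such bulk samples fewer cells of a type and less RNA per cell cannot be told apart.

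SR genes in AML12 cells were led by Srsf6, which encodes an SR protein that binds exonic enhancers. Its level was 62.5, 61.9 and 61.3 FPKM in AML12 DEP libraries, against 51.5, 51.5 and 51.0 FPKM in AML12 DMSO libraries. The groups did not overlap, and the level was 20.6% higher with DEP (log2 fold change 0.27 ± 0.02 (SE), adjusted p = 0.000106, limma). In iWAT cells the same gene measured 57.0, 59.1 and 57.6 FPKM with DEP and 58.8, 58.9 and 60.5 FPKM with DMSO, and the groups overlapped.

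Srsf10, whose dephosphorylated protein represses splicing during heat shock and mitosis, had 29.0, 29.0 and 29.0 FPKM in AML12 DEP libraries, against 24.6, 24.8 and 24.6 FPKM in AML12 DMSO libraries. Srsf3, the smallest SR protein, had 44.6, 41.7 and 42.9 FPKM in AML12 DEP libraries, against 36.7, 38.3 and 36.9 FPKM in AML12 DMSO libraries. Both groups of libraries stood apart for each gene, with log2 fold changes of 0.22 ± 0.02 and 0.20 ± 0.03 (SE). Neither was called in iWAT cells, where the log2 fold change was 0.02 for Srsf10 and -0.03 for Srsf3.

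Srsf1, the founding member of the family, rose by 13.9% in AML12 cells, and Srsf2, which also acts in transcription elongation, by 10.1%. Srsf4 rose by 16.4% and Srsf11 by 8.48%, but both calls were among those that did not hold without every library. The adjusted p of Srsf4 was 0.0528 to 0.0778 without DEP replicate 2, DEP replicate 3 or any 1 DMSO replicate, and that of Srsf11 was 0.0827 to 0.0931 without DEP replicate 2 or 3 or DMSO replicate 1 or 2. Srsf9 was not called, with 40.0, 33.2 and 37.6 FPKM in AML12 DEP libraries and 34.6, 35.3 and 35.9 FPKM in AML12 DMSO libraries, where 1 DEP library lay below all the controls.

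Srsf5 was the SR gene with the highest control level in AML12 cells and the 1 SR gene called lower there. It had 107, 108 and 106 FPKM in AML12 DEP libraries, against 111, 111 and 110.4 FPKM in AML12 DMSO libraries. These groups did not overlap, but the level fell by 3.59% (log2 fold change -0.05 ± 0.02 (SE), adjusted p = 0.0491, limma). The call was lost without any 1 of the 6 libraries, at adjusted p-values of 0.0743 to 0.139. In iWAT cells Srsf5 had 55.8, 55.8 and 55.6 FPKM with DEP and 52.7, 56.2 and 54.5 FPKM with DMSO, and was not called.

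Srsf7, an SR protein with a zinc knuckle that also takes part in mRNA export, was called in opposite directions in the lines. In AML12 cells it had 40.3, 39.5 and 37.7 FPKM with DEP, against 33.8, 35.3 and 35.7 FPKM with DMSO, a log2 fold change of 0.16 ± 0.03 (SE). In iWAT cells it had 40.2, 41.9 and 42.6 FPKM with DEP, against 45.3, 46.1 and 46.8 FPKM with DMSO, a log2 fold change of -0.15 ± 0.03 (SE). The groups did not overlap in either line. The iWAT call (adjusted p = 0.0213) was lost without DEP replicate 2, DMSO replicate 2 or DMSO replicate 3, at adjusted p-values of 0.0619 to 0.0756.

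**Figure D2:**
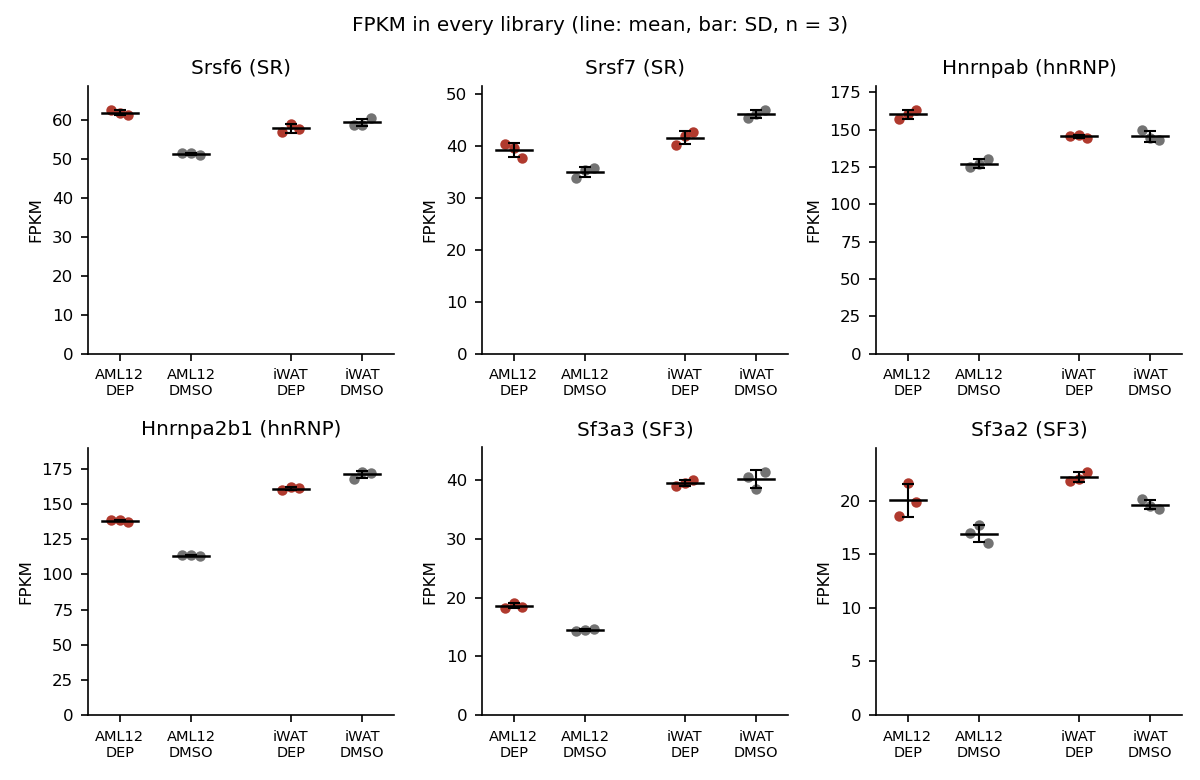
FPKM in every library for 6 splicing factor genes, in AML12 DEP, AML12 DMSO, iWAT DEP and iWAT DMSO cells; points are libraries, lines means and bars SD (n = 3). DEP lies above DMSO in AML12 cells for every gene plotted, while in iWAT cells Srsf7 and Hnrnpa2b1 lie below, Sf3a2 lies above and the others overlap.

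The promoters of the SR gene with the largest rise and of the SR gene with opposite calls are shown because 8 of 10 tested SR genes rose in AML12 cells, Srsf6 most, and Srsf7 was the SR gene that fell in iWAT cells. They are RefSeq sequences of build GRCm38.p6, from 250 bases before to 50 bases after the gene's start, Srsf6 at chr2:162931258-162931557 on the plus strand and Srsf7 at chr17:80207256-80207555 on the minus strand. Capitals mark matches on either strand to the letters CCAAT (the NF-Y box), CCGGAAGT (bound by ETS factors), TTTCGCGC (E2F), CACGTG (the E-box of MYC and related factors) and GCGCATGCG (NRF1).
Srsf6: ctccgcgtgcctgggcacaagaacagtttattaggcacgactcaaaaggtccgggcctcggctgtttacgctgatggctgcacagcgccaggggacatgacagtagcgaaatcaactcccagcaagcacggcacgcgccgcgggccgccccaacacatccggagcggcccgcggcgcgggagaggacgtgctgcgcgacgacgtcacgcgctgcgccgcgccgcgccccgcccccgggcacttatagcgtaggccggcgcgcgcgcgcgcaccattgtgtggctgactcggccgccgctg
Srsf7: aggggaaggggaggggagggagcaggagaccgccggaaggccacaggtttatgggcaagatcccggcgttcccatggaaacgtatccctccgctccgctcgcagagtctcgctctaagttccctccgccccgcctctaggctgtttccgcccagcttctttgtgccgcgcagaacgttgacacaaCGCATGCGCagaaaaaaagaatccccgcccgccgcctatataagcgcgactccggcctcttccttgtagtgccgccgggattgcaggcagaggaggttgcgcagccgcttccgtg
The Srsf6 window held none of these motifs, and the Srsf7 window held 1 match to GCGCATGCG. Such a match is a description of the letters, and no evidence of binding.

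Among hnRNP genes the largest rise in AML12 cells was that of Hnrnpm, which binds GU-rich intronic sequence. It had 32.7, 32.3 and 32.4 FPKM in AML12 DEP libraries, against 25.8, 25.5 and 25.4 FPKM in AML12 DMSO libraries. Each DEP library lay well above every DMSO library (log2 fold change 0.33 ± 0.02 (SE), adjusted p = 6.6e-05, limma). In iWAT cells it had 41.2, 41.5 and 41.1 FPKM with DEP and 40.3, 40.5 and 39.7 FPKM with DMSO, which did not overlap but did not pass the test (log2 fold change 0.04, adjusted p = 0.253, limma).

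Hnrnpab, a CArG-box and RNA-binding protein, had 157, 161 and 163 FPKM in AML12 DEP libraries, against 125, 127 and 130.2 FPKM in AML12 DMSO libraries. That was 25.9% higher with DEP (log2 fold change 0.33 ± 0.02 (SE), adjusted p = 0.000134, limma). The iWAT libraries overlapped, at 146, 146 and 144 FPKM with DEP and 149.8, 144 and 143 FPKM with DMSO. Hnrnpl, which binds CA repeats, had 59.0, 64.4 and 62.3 FPKM in AML12 DEP libraries, against 49.5, 50.0 and 50.3 FPKM in AML12 DMSO libraries, a log2 fold change of 0.30 ± 0.03 (SE). Its paralog Hnrnpll, known for the splicing of CD45 in lymphocytes, rose by 21.7% in AML12 cells, to 7.66 FPKM with DEP from 6.30 FPKM with DMSO on average.

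Hnrnpa2b1, which binds trafficking signals in mRNA and sorting motifs in microRNA, was the hnRNP gene with opposite calls. In AML12 cells it had 139, 139 and 138 FPKM with DEP, against 114, 114 and 113 FPKM with DMSO (log2 fold change 0.29 ± 0.02 (SE), adjusted p = 5.2e-05, limma). In iWAT cells it had 159.8, 162 and 161 FPKM with DEP, against 168, 173 and 172 FPKM with DMSO (log2 fold change -0.09 ± 0.02 (SE), adjusted p = 0.0347, limma). DEP and DMSO libraries did not overlap in either line. The iWAT call was lost without any 1 DEP replicate, DMSO replicate 2 or DMSO replicate 3, at adjusted p-values of 0.0809 to 0.116.

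Hnrnpa1, the best known antagonist of SR proteins, had the highest control level of all the splicing factor genes in both lines. It had 211, 212 and 213 FPKM in AML12 DEP libraries, against 192, 196 and 196 FPKM in AML12 DMSO libraries, a rise of 8.89% (adjusted p = 0.00198, limma). In iWAT cells it had 297, 292 and 293 FPKM with DEP and 271, 285 and 286 FPKM with DMSO. Those groups did not overlap, yet the difference did not pass the test (log2 fold change 0.07, adjusted p = 0.149, limma). Lowest in FPKM among hnRNP genes was Hnrnpr, with 4.56, 4.46 and 4.67 FPKM in AML12 DEP and 4.18, 3.94 and 3.92 FPKM in AML12 DMSO libraries. Its call as higher was lost without DEP replicate 1 or 3 or DMSO replicate 2 or 3, at adjusted p-values of 0.0522 to 0.0698 (limma).

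The hnRNP H and F proteins bind runs of guanines. Hnrnph1 had 77.6, 78.6 and 78.0 FPKM in AML12 DEP libraries, against 65.4, 65.3 and 66.3 FPKM in AML12 DMSO libraries, a log2 fold change of 0.25 ± 0.02 (SE). In iWAT cells it had 53.2, 54.1 and 53.4 FPKM with DEP and 54.0, 55.7 and 54.2 FPKM with DMSO, which overlapped. In AML12 cells Hnrnph2 rose by 13.1% and Hnrnpf by 10.5%, whereas Hnrnph3 had a log2 fold change of -0.02 and was not called. The Hnrnpf call was lost without DEP replicate 2 or 3 or DMSO replicate 1 or 3, at adjusted p-values of 0.0527 to 0.0675.

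Of the other hnRNP genes, 4 were called higher in AML12 cells. Hnrnpu, a nuclear scaffold protein, rose by 14.8%, Hnrnpd, which binds AU-rich elements and promotes mRNA decay, by 15.3%, Hnrnpk, which binds cytosine-rich sequence, by 12.03% and Hnrnpul2 by 9.26%. Hnrnpc, which binds uridine tracts, had 63.8, 63.6 and 63.9 FPKM in AML12 DEP libraries and 65.4, 66.5 and 66.9 FPKM in AML12 DMSO libraries, and Hnrnpa0 had 96.4, 95.9 and 99.5 FPKM in AML12 DEP libraries and 95.2, 88.0 and 88.2 FPKM in AML12 DMSO libraries. Both of these sets lay apart without overlap but missed the threshold narrowly, at adjusted p-values of 0.0537 and 0.0517 (limma). Hnrnpa3, Hnrnpdl and Hnrnpul1 overlapped between the groups.

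Several of these genes have annotated pseudogene copies of similar sequence, which could share reads with them. Whether they did was not tested, and how such reads were divided is not given in the sources used here. Copies were taken as annotated pseudogenes of at least 90% identity over at least 300 bases. FPKM divides by length, and annotated hnRNP pseudogenes can be short: Hnrnpa1l2-ps has 964 bases of exon, and Hnrnpa3 itself 5396. Sums of FPKM therefore weigh short copies more heavily, also where copies were added to their genes. They do not give the share of reads. The values of Hnrnpa3 are the least certain: 34 copies in the AML12 table summed to 116 FPKM on average, above the 19.9 FPKM of the gene itself. The copies summed to 50.9 FPKM beside 102 FPKM for Hnrnpk, to 37.7 FPKM beside 203 FPKM for Hnrnpa1, to 23.3 FPKM beside 40.2 FPKM for Srsf3 and to 19.3 FPKM beside 109 FPKM for Srsf5. With the copies added to their genes, an alternative chosen after seeing the data, the AML12 log2 fold change was 0.16 for Hnrnpk, 0.13 for Hnrnpa1 and 0.20 for Srsf3, all still called, while Srsf5 was no longer called (adjusted p = 0.0533, limma). Hnrnpa3, called in neither case, had an AML12 log2 fold change of -0.05 with its copies added and 0.04 on its own.

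The promoters of 3 hnRNP genes with large rises are shown for the NF-Y box, the motif that hnRNP promoters held most often. They lie at chr6:51469845-51470144 on the minus strand for Hnrnpa2b1, at chr11:51606832-51607131 on the minus strand for Hnrnpab and at chr17:33685409-33685708 on the minus strand for Hnrnpm (RefSeq, GRCm38.p6), with the same motifs in capitals.
Hnrnpa2b1: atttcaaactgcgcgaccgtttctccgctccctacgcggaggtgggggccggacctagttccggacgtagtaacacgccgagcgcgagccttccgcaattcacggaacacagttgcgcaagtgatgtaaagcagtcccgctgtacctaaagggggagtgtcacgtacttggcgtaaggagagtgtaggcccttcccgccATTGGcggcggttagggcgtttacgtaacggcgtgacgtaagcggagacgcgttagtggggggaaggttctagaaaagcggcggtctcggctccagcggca
Hnrnpab: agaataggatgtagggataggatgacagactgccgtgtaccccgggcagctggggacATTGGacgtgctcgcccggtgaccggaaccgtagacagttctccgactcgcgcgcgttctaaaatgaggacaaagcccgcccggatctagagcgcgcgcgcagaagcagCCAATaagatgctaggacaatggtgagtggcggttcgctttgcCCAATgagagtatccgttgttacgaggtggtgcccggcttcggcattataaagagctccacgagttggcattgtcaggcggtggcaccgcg
Hnrnpm: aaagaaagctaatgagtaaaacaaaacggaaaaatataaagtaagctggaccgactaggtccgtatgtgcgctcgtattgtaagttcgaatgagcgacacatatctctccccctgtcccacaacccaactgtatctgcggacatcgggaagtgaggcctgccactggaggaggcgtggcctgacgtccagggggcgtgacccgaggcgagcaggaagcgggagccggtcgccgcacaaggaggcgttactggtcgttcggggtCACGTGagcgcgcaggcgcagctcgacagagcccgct
Hnrnpab held 3 matches to CCAAT, Hnrnpa2b1 held 1, and Hnrnpm held none but had 1 match to CACGTG. RefSeq promoters were matched for 36 of the 40 genes, 49 promoters in all, since some genes have several starts whose windows overlap and were counted separately. The letters CCAAT stood in 17 of 27 hnRNP, 4 of 14 SR and 3 of 8 SF3 promoters, beside 37.4% of all 32851 promoters of that length. By gene, counted if any window matched, they stood in 13 of 18 hnRNP, 4 of 11 SR and 2 of 7 SF3 genes. No share by gene was taken over all promoters. CCGGAAGT stood in 10 of the 49 promoters (3.89% of all), CACGTG in 5 (7.15% of all), GCGCATGCG in 3 (1.75% of all) and TTTCGCGC in none (0.323% of all). The median GC content was 65% in the 49 promoters and 52.7% in all, and 4 genes had no entry (Hnrnpll, Hnrnpul2, Sf3b4 and Sf3b5).

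SF3A is the smaller of the U2 complexes, and all 3 of its genes rose in AML12 cells. Sf3a3, the subunit that joins SF3A to the body of the snRNP, showed the largest rise of any splicing factor gene. It had 18.3, 19.1 and 18.5 FPKM in AML12 DEP libraries, against 14.4, 14.5 and 14.6 FPKM in AML12 DMSO libraries, a log2 fold change of 0.34 ± 0.03 (SE, adjusted p = 0.000159, limma). In iWAT cells the groups overlapped, at 38.9, 39.5 and 40.0 FPKM with DEP and 40.6, 38.5 and 41.4 FPKM with DMSO.

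Sf3a2, a zinc finger subunit of SF3A, was the 1 splicing factor gene called higher in both lines. It had 18.6, 21.6 and 19.9 FPKM in AML12 DEP libraries, against 17.0, 17.7 and 16.1 FPKM in AML12 DMSO libraries (log2 fold change 0.23 ± 0.06 (SE), adjusted p = 0.0202, limma). It had 21.9, 22.1 and 22.7 FPKM in iWAT DEP libraries, against 20.1, 19.5 and 19.3 FPKM in iWAT DMSO libraries (log2 fold change 0.17 ± 0.03 (SE), adjusted p = 0.0118, limma). All DEP libraries were above all DMSO libraries of their line. The AML12 call was lost without DEP replicate 3, DMSO replicate 1 or DMSO replicate 3, at adjusted p-values of 0.0513 to 0.0625, while the iWAT call held without each library in turn but was lost in the joint fit of both lines (adjusted p = 0.0518, limma).

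Sf3a1, the SF3A subunit with SURP domains, had 16.4, 16.5 and 17.0 FPKM in AML12 DEP libraries, against 15.2, 15.6 and 15.8 FPKM in AML12 DMSO libraries. This small rise of 6.91% was called at an adjusted p of 0.0323 (limma), and the call was lost without any 1 library, at adjusted p-values of 0.0509 to 0.1002. In iWAT cells it had 25.4, 24.7 and 26.5 FPKM with DEP and 25.3, 24.8 and 25.1 FPKM with DMSO.

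SF3B, the larger complex, was mixed. Sf3b1, the clamp that closes around the branch site helix and a target of antitumour splicing inhibitors, fell in AML12 cells. It had 27.1, 27.5 and 26.8 FPKM in AML12 DEP libraries, against 28.5, 29.0 and 28.6 FPKM in AML12 DMSO libraries (log2 fold change -0.08 ± 0.02 (SE), adjusted p = 0.0235, limma). The groups did not overlap, but the call was lost without DEP replicate 1, DEP replicate 3 or any 1 DMSO replicate, at adjusted p-values of 0.0523 to 0.0757. In iWAT cells Sf3b1 had 30.2, 29.5 and 29.6 FPKM with DEP and 29.9, 29.3 and 30.6 FPKM with DMSO.

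Sf3b3, a scaffold subunit built of beta propellers, had 21.4, 21.4 and 20.8 FPKM in AML12 DEP libraries, against 19.0, 19.2 and 19.1 FPKM in AML12 DMSO libraries. Sf3b4, an RNA-binding subunit, had 45.4, 45.1 and 47.5 FPKM in AML12 DEP libraries, against 42.6, 39.1 and 37.9 FPKM in AML12 DMSO libraries. Both rose without overlap, by 11.2% and 15.3%. In iWAT cells Sf3b3 had 42.5, 41.2 and 42.0 FPKM with DEP and 39.8, 40.5 and 40.4 FPKM with DMSO, and Sf3b4 had 80.6, 78.0 and 82.8 FPKM with DEP and 78.4, 72.2 and 74.0 FPKM with DMSO. Neither iWAT difference passed the test, at adjusted p-values of 0.127 and 0.136 (limma).

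Sf3b2, which contacts the pre-mRNA near the branch site, had the highest control level of the SF3 genes averaged over the lines. It had 54.6, 55.8 and 55.5 FPKM in AML12 DEP libraries and 55.8, 56.8 and 57.2 FPKM in AML12 DMSO libraries, and 73.9, 71.7 and 73.3 FPKM in iWAT DEP libraries and 69.4, 71.3 and 70.0 FPKM in iWAT DMSO libraries. Neither difference was called. Sf3b5, a small subunit, had 16.1, 16.0 and 15.6 FPKM in AML12 DEP libraries and 16.1, 16.1 and 14.8 FPKM in AML12 DMSO libraries, and Sf3b6, the subunit next to the branch point, had 17.5, 18.2 and 17.9 FPKM in AML12 DEP libraries and 16.7, 17.1 and 17.3 FPKM in AML12 DMSO libraries. In iWAT cells Sf3b5 had 18.6, 17.9 and 18.0 FPKM with DEP and 18.2, 18.6 and 19.0 FPKM with DMSO, and Sf3b6 had 19.7, 19.5 and 17.2 FPKM with DEP and 18.7, 18.5 and 19.5 FPKM with DMSO. Sf3b5 and Sf3b6 were called in neither line.

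The promoter of Sf3a3, shown as the SF3 gene with the largest rise, lies at chr4:124714611-124714910 on the plus strand (RefSeq, GRCm38.p6).
Sf3a3: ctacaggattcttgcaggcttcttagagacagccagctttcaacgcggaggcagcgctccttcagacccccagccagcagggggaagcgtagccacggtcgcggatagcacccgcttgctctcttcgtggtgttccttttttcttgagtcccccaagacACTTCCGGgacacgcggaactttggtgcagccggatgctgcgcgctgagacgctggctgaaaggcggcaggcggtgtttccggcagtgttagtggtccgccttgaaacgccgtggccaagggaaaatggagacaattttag
It held 1 match to CCGGAAGT, on the reverse strand. By gene, these letters stood on either strand in 3 of 7 SF3, 3 of 11 SR and 2 of 18 hnRNP genes. A gene counted if any of its windows matched, and the share over all promoters, 3.89%, is by window, so the 2 are not alike.

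To ask whether the lines responded differently, a line-by-treatment interaction was fitted over all 12 libraries. The AML12 log2 fold change was above that of iWAT cells for 20 of the 39 splicing factor genes, beside 17.6% of all 14651 genes tested, and below it for 1, beside 11.7%. The 20 were 6 SR, 12 hnRNP and 2 SF3 genes, and the 1 below was Sf3b2. All 20 were also called higher in AML12 cells on their own. The smallest p-value belonged to Hnrnpa2b1, whose difference was 0.37 ± 0.02 on the log2 scale (SE, adjusted p = 8.67e-07, limma). Hnrnpm (0.29 ± 0.02), Hnrnph1 (0.27 ± 0.02), Srsf6 (0.30 ± 0.03), Hnrnpab (0.33 ± 0.03) and Sf3a3 (0.36 ± 0.04) came next. Srsf7 differed by 0.30 ± 0.04.

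For 18 genes the difference was not called, which does not show that the lines responded alike. The 95% interval for Sf3a2 was -0.09 to 0.21, and that for Hnrnpa1 -0.01 to 0.12. Sf3b2 differed by -0.09 (95% interval -0.14 to -0.03), a call lost without 1 library in 7 of 12 cases, at adjusted p-values of 0.0574 to 0.0655 without AML12 DEP replicate 1, AML12 DMSO replicate 2 or 3, iWAT DEP replicate 1 or 3, or iWAT DMSO replicate 1 or 3. Among the 27 genes that rose in AML12 cells, 14 had an iWAT log2 fold change below 0, beside 6305 of all 13482 genes tested in iWAT cells. Across the 39 genes the fold changes of the lines had a Pearson r of -0.06 and a Spearman rho of -0.09. Over all 11399 genes tested in both lines these were 0.02 and 0.04. The correlations are a description only, since all values of a line share the same 6 libraries.

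**Figure D3:**
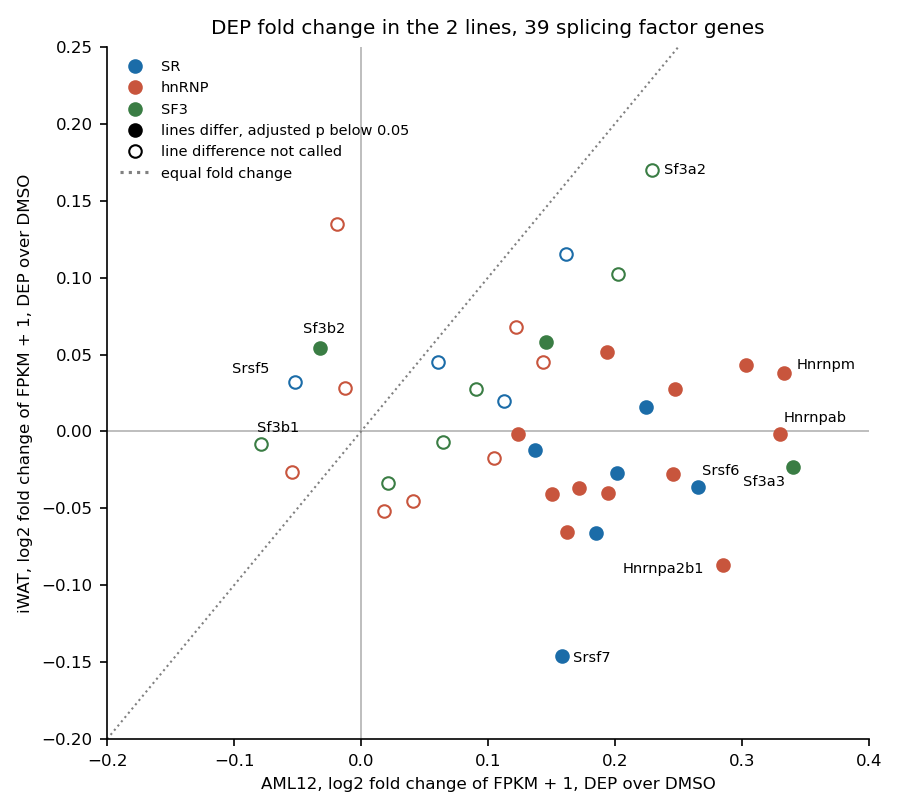
Log2 fold change of FPKM + 1, DEP over DMSO, in AML12 (x axis) against iWAT cells (y axis) for the 39 tested splicing factor genes, coloured by class; filled points have a line difference with an adjusted p below 0.05, and the dotted line marks equal fold change. The filled points lie below the dotted line except for Sf3b2, and Srsf7 lies lowest, at 0.16 in AML12 and -0.15 in iWAT cells.

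Summed over a class, the level of these transcripts moved with DEP in AML12 cells. The 11 SR genes together held 519.6, 509 and 509 FPKM in AML12 DEP libraries, against 465, 473 and 472 FPKM in AML12 DMSO libraries. The hnRNP genes held 1309.6, 1335 and 1342 FPKM with DEP, against 1173, 1177 and 1178 FPKM with DMSO, and the SF3 genes 235, 241 and 239 FPKM with DEP, against 225, 225 and 221 FPKM with DMSO. DEP libraries were above DMSO libraries for each class, by ratios of means of 1.09, 1.13 and 1.07. In iWAT cells the SR sum was 417 to 426 FPKM with DEP and 423 to 433 FPKM with DMSO, the hnRNP sum 1449 to 1465 FPKM with DEP and 1453 to 1469 FPKM with DMSO, and the SF3 sum 344 to 352 FPKM with DEP and 333 to 340.4 FPKM with DMSO. The iWAT groups overlapped for SR and hnRNP genes and did not for SF3 genes.

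Control levels of the splicing factor genes spanned a wide range in FPKM, which is scaled by length. The length was that of all annotated exons together, such as 22199 bases for Hnrnpr and 3151 for Hnrnph3. Hnrnpr stood below Hnrnph3 in FPKM, yet had 3728 to 4285 reads in AML12 DMSO libraries against 821 to 886. The order of genes therefore depends on the annotated lengths. In AML12 DMSO libraries control levels ran from 2.60 ± 0.05 FPKM for Srsf4 to 195 ± 2.31 FPKM for Hnrnpa1 among tested genes (SD, n = 3). In iWAT DMSO libraries they ran from 6.60 ± 0.11 FPKM for Srsf4 to 280.5 ± 8.55 FPKM for Hnrnpa1. After Hnrnpa1 came Hnrnpab, Hnrnpa2b1, Srsf5 and Hnrnpf in AML12 cells, and Hnrnpa2b1, Hnrnpf, Hnrnpab and Hnrnpa0 in iWAT cells. Neighbours such as Srsf1 (66.3 ± 0.71 FPKM) and Hnrnpc (66.3 ± 0.80 FPKM) in AML12 DMSO libraries did not differ beyond their spread (SD, n = 3). The 2 tables were normalized separately, so levels across the lines are given without a test. Of all 14651 genes tested jointly, 51.8% had AML12 DMSO libraries below the iWAT DMSO libraries without overlap and 34.3% had them above, and of those with at least 10 FPKM 54.6% had them below. All 9 SF3 genes had AML12 DMSO libraries below the iWAT DMSO libraries, the ratio being largest for Sf3a3, at 14.5 ± 0.11 FPKM in AML12 DMSO and 40.1 ± 1.52 FPKM in iWAT DMSO libraries. Of the hnRNP genes 15 were lower and 2 higher in AML12 DMSO libraries without overlap, and of the SR genes 5 were lower and 3 higher. Srsf5 (111 ± 0.31 FPKM in AML12 DMSO and 54.5 ± 1.79 FPKM in iWAT DMSO libraries) and Srsf2 (85.6 ± 1.79 FPKM in AML12 DMSO and 53.0 ± 0.89 FPKM in iWAT DMSO libraries) were the SR genes farthest above. Over the 39 genes the log2 fold change with DEP showed a Pearson r with the log2 control level of 0.03 in AML12 and -0.26 in iWAT cells. The Spearman rho was 0.01 and -0.16, again a description of genes measured in the same libraries.

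**Figure D4:**
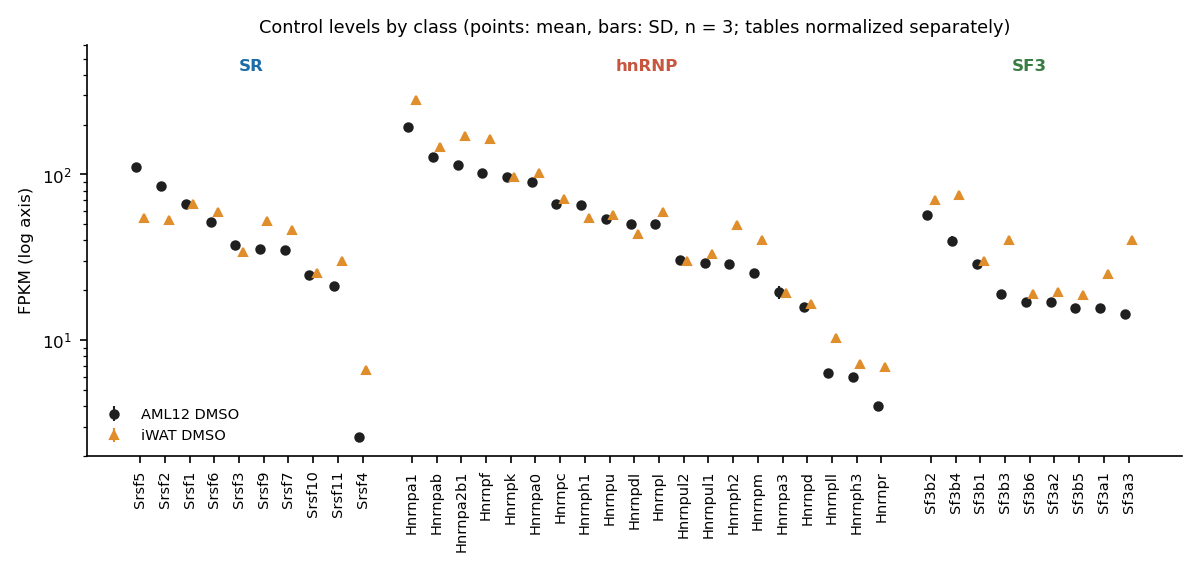
Mean FPKM on a log axis in AML12 DMSO (circles) and iWAT DMSO libraries (triangles) for the 39 tested splicing factor genes, by class; bars are SD (n = 3), often smaller than the symbol, and the tables were normalized separately. All 9 SF3 genes are lower in AML12 DMSO libraries, as were 51.8% of all genes tested, while Srsf5 and Srsf2 are higher there, as were 34.3%.

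Other parts of the splicing machinery were counted for comparison, in lists chosen by known function. Over all genes tested in AML12 cells, 23.9% were called higher and 15.3% lower, and 32% were called higher among those at 10 FPKM or more. In AML12 cells 6 of 10 tested hnRNP proteins that carry other symbols rose and 1 fell, among them Ptbp1, the polypyrimidine tract repressor, at 70.7 ± 1.65 FPKM with DEP and 58.0 ± 2.46 FPKM with DMSO. Of SR-related proteins 9 of 14 rose and 1 fell, led by the enhancer-binding Tra2a (18.5 ± 0.11 FPKM with DEP and 14.1 ± 0.39 FPKM with DMSO) and Tra2b (16.6 ± 0.14 FPKM with DEP and 12.9 ± 0.34 FPKM with DMSO). Among the kinases that phosphorylate SR proteins only Srpk1 was called, of 8 tested, at 8.94 ± 0.25 FPKM with DEP and 7.71 ± 0.14 FPKM with DMSO. SDs are over 3 libraries each. The list medians of the log2 fold change were 0.11, 0.19 and 0.00, against 0.03 over all genes tested.

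Among the partners of SF3 at the branch site, 8 of 15 rose and 1 fell in AML12 cells. The lists here stand beside 23.9% of all genes tested called higher and 15.3% called lower. U2af2, which binds the polypyrimidine tract, had 49.4 ± 1.18 FPKM with DEP and 37.9 ± 1.15 FPKM with DMSO, and Ddx46, the helicase that remodels U2, had 20.7 ± 0.14 FPKM with DEP and 16.3 ± 0.18 FPKM with DMSO. Of the U1 list 3 of 7 rose and 1 fell, with Snrnp70 at 36.4 ± 0.37 FPKM with DEP and 32.0 ± 0.85 FPKM with DMSO and Tia1 at 5.57 ± 0.21 FPKM with DEP and 4.41 ± 0.14 FPKM with DMSO. Of the Sm core, the ring shared by the snRNPs, 4 of 6 rose, with Snrpd1 at 43.4 ± 1.40 FPKM with DEP and 36.9 ± 1.19 FPKM with DMSO and Snrpb at 111 ± 4.29 FPKM with DEP and 97.96 ± 1.44 FPKM with DMSO. Of the tri-snRNP 8 of 14 rose, with the GTPase Eftud2 at 21.8 ± 0.10 FPKM with DEP and 17.4 ± 0.56 FPKM with DMSO and Prpf31 at 10.5 ± 0.06 FPKM with DEP and 8.55 ± 0.43 FPKM with DMSO. No gene of the Sm or tri-snRNP lists was called lower. The medians were 0.12, 0.10, 0.20 and 0.15 on the log2 scale.

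Splicing factors regulated by tissue and the decay pathway that degrades mis-spliced mRNA were counted in the same way, beside the same shares over all genes tested. In AML12 cells 7 of 10 tissue-regulated factors rose and 1 fell, among them Celf1 (33.1 ± 1.16 FPKM with DEP and 29.1 ± 0.18 FPKM with DMSO) and Mbnl1 (8.47 ± 0.31 FPKM with DEP and 7.23 ± 0.12 FPKM with DMSO), which act against each other in muscle. Of nonsense-mediated decay genes 7 of 10 rose, with the helicase Upf1 at 25.4 ± 0.31 FPKM with DEP and 21.5 ± 0.19 FPKM with DMSO and Smg5 at 18.2 ± 0.43 FPKM with DEP and 14.1 ± 0.15 FPKM with DMSO. The medians were 0.16 and 0.22 on the log2 scale.

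In iWAT cells these lists held few calls, all of them rises, beside 4.03% of all 13482 genes tested called higher and 4.52% called lower. Of all genes at 10 FPKM or more on average, 7.19% were called higher, so few calls are no trait of these lists. The list genes called were Rnps1 (48.9 ± 0.13 FPKM with DEP and 45.0 ± 1.38 FPKM with DMSO) and Son (40.0 ± 0.14 FPKM with DEP and 37.9 ± 0.17 FPKM with DMSO) of 14 SR-related proteins, Cherp (41.1 ± 0.92 FPKM with DEP and 37.1 ± 1.252 FPKM with DMSO) of 15 branch site partners, Rbm38 (18.7 ± 0.79 FPKM with DEP and 14.8 ± 0.52 FPKM with DMSO) of 10 tissue-regulated factors, and Upf1 (35.8 ± 0.69 FPKM with DEP and 32.5 ± 0.66 FPKM with DMSO) and Smg8 (16.5 ± 0.34 FPKM with DEP and 15.1 ± 0.26 FPKM with DMSO) of 10 decay genes. None was called among the other hnRNP proteins, the SR kinases, U1, Sm or the tri-snRNP. Upf1 was called higher in both lines.

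**Figure D5:**
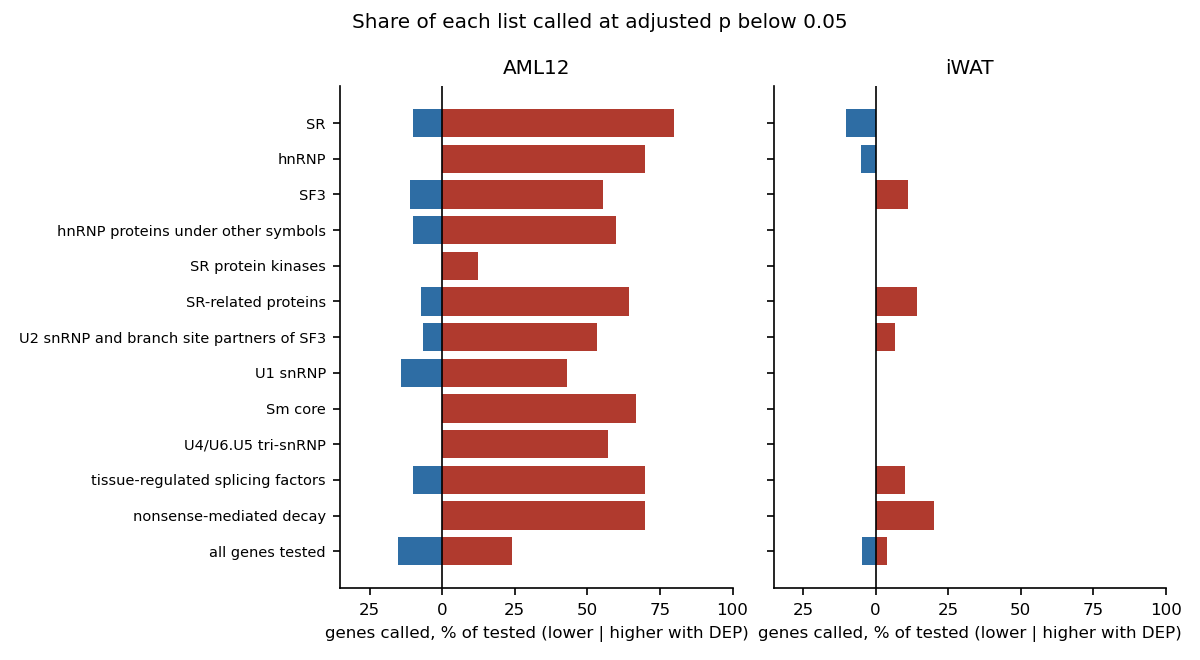
Share of tested genes called at an adjusted p below 0.05, in percent, higher with DEP (red, right of 0) and lower with DEP (blue, left of 0), in AML12 (left) and iWAT cells (right), for the 3 splicing factor classes, 9 other lists and all genes tested. In AML12 cells SR protein kinases, with 1 of 8, are the list with the lowest share called higher. Of all genes tested there, 23.9% were called higher and 15.3% lower.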

How the data were processed

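RNA sequencing values of 12 libraries were analysed, 3 per group. Per the submitters' processing notes, Trimmomatic was used for trimming and HISAT2 for alignment, with the GRCm39 mouse build; versions, counting tool and annotation are not given in the sources used here. The labels describe mirVana RNA, a quality minimum and stranded total RNA libraries. The authors deposited FPKM per gene, in a table for each line (27742 genes for AML12, 29092 for iWAT). The unit was found from the values: with GENCODE M21 exon lengths, low values were whole reads (within 0.005) for 89.5% of AML12 and 89.4% of iWAT genes. Whether a read or a read pair was counted is not given. Symbols came from GENCODE M21 (GRCm38), which matched 95.1% and 95.0% of the identifiers and was used for names and lengths only.

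DEP and DMSO libraries of a line were compared by limma 3.58.1 in R 4.3.3 (lmFit, eBayes with trend, two-sided) on log2(FPKM + 1), over genes of at least 0.5 FPKM in at least 3 libraries. Log2 fold changes on this scale understate changes of low genes. The line difference was the interaction in a joint fit of genes present in both tables. Tested splicing factor genes had 397 to 60342 reads per library. Replicates differed beyond sampling noise, so none were merged. Pseudogene copies were found with blastn 2.17.0. The fits were run on simulated data in which every gene had the same replicate spread. Recovery was required only for changes larger than those of the splicing factor genes, so this check does not bear on their calls.

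The members, lists and tests were chosen with earlier results of these data known. Genes given with every library were, per line and class, up to 3 called genes with the largest rise and up to 3 with the largest fall, all SF3 genes, the 6 with the smallest p for the line difference, and the highest and lowest control level per class; per list and line, up to 2 called genes with the smallest p, of which 1 is not reported here. Other genes and the 6 promoters were chosen after their values were seen. Alternatives were another pseudocount, filters, scalings, thresholds, a replicate block, a joint fit, voom on recovered reads, leaving out each library and adding pseudogene copies. No protein sequences were used here.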

Additional observations from a re-analysis of the deposited data

Results flagged for a closer look

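The response to DEP differed between the lines, by the interaction of line and treatment (limma, adjusted p below 0.05 over 14651 genes), for 21 of the 39 tested splicing factor genes. Each value is a log2 fold change in AML12 cells minus that in iWAT cells. Among SR genes it was 0.30 for Srsf7, 0.30 for Srsf6, 0.25 for Srsf1, 0.23 for Srsf3, 0.21 for Srsf10 and 0.15 for Srsf2. Among hnRNP genes it was 0.37 for Hnrnpa2b1, 0.33 for Hnrnpab, 0.29 for Hnrnpm, 0.27 for Hnrnph1, 0.26 for Hnrnpl, 0.23 for Hnrnpu and 0.23 for Hnrnpk. It was 0.22 for Hnrnpll, 0.21 for Hnrnph2, 0.19 for Hnrnpr, 0.14 for Hnrnpd and 0.13 for Hnrnpul2. Among SF3 genes it was 0.36 for Sf3a3, 0.088 for Sf3b3 and -0.087 for Sf3b2. Beside Sf3b2, 3 of these calls were lost without some libraries: Sf3b3 without AML12 DEP replicate 1 or 2, AML12 DMSO replicate 1 or 3, iWAT DEP replicate 2 or iWAT DMSO replicate 2 or 3 (adjusted p 0.0528 to 0.0686, limma), Hnrnpd without AML12 DEP replicate 3, AML12 DMSO replicate 2, iWAT DEP replicate 1 or 3 or any 1 iWAT DMSO replicate (0.0565 to 0.0758), and Hnrnpul2 without AML12 DEP replicate 2 or AML12 DMSO replicate 1 (0.0506 and 0.0502). Median-centred libraries also ended these 3, at 0.052 for Sf3b3 (adjusted p = 0.169, limma), 0.11 for Hnrnpd (0.115) and 0.090 for Hnrnpul2 (0.0885). Library totals were 49249612 to 52915504 reads in AML12 DEP and 42845105 to 46232482 reads in AML12 DMSO libraries, and 47735539 to 49059545 reads in iWAT DEP and 50035049 to 54585090 reads in iWAT DMSO libraries. The part of depth in these differences was not tested.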

How the results depend on the processing

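No called gene changed direction under any alternative. Of 29 calls in AML12 cells 20 held in every alternative and of 3 in iWAT cells 0. Of 21 line differences 17 held in every alternative run for them, which did not include upper-quartile scaling, voom or pseudogene copies. The 27 AML12 genes called higher were 21 to 25 without 1 library, 23 without a filter and 22 with median-centred libraries. They were 24 with upper-quartile scaling, 24 with the replicate block and 20 at an adjusted p below 0.01. Median-centring ended the higher calls of Sf3a1 (adjusted p = 0.144), Srsf11 (0.0989), Hnrnpf (0.0555), Srsf4 (0.0549) and Hnrnpr (0.0508, limma). The 2 called lower were 1 without a filter, 4 with median-centred libraries, 4 with upper-quartile scaling, 0 with the replicate block, 1 in the joint fit, 0 at an adjusted p below 0.01, 1 with pseudogene copies added and 0 to 1 without 1 library. Median-centring took the AML12 median log2 fold change over all genes tested from 0.032 to -0.0036. It and upper-quartile scaling gave AML12 class medians of 0.12 and 0.13 for SR, 0.12 and 0.12 for hnRNP and 0.055 and 0.057 for SF3 genes. The AML12 split over all genes turned from 3092 higher and 1982 lower into 2357 higher and 2545 lower when median-centred. In iWAT cells the 3 calls (1 higher, 2 lower) were 1 (1 higher, 0 lower) without a filter, 1 (0 higher, 1 lower) with the replicate block, 8 (4 higher, 4 lower) with voom, 0 (0 and 0) at an adjusted p below 0.01 and 1 to 3 (1 higher, 0 to 2 lower) without 1 library; the joint fit left 0 higher. The calls were 1 in all without DEP replicate 2, DMSO replicate 2 or DMSO replicate 3. Without 1 library the iWAT medians ran from -0.018 to 0.0072 for hnRNP and 0.021 to 0.051 for SF3 genes. The 1 gene below in the line difference was 3 genes when median-centred, 0 with the replicate block, 0 at an adjusted p below 0.01 and 0 to 2 without 1 library. The replicate block ended the line differences of Sf3b2 (adjusted p = 0.0850), Sf3b3 (0.0904) and Hnrnpd (0.0515) and the iWAT call of Sf3a2 (0.0617). Over all genes in iWAT cells 1152 were called, 503 with the replicate block and 1992 with voom. Over all genes tested, deviations of same-numbered DEP and DMSO libraries correlated at -0.06, 0.00 and -0.03 in AML12 and -0.03, 0.02 and 0.03 in iWAT cells. No pairing by replicate number was seen in these values, which do not tell about single genes. Summing rows that share a symbol was not run, since no member shares one. The cause of these changes was not tested. What depth limits was not tested.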
